A study of Homo sapiens with 6 samples.

Results

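The genes that decide what becomes of pyruvate were followed in an oral squamous cell carcinoma line under hypoxia. The list holds 9 genes: the pyruvate dehydrogenase kinases PDK1, PDK2, PDK3 and PDK4, the pyruvate dehydrogenase phosphatase PDP1, the lactate dehydrogenases LDHA and LDHB, and the lactate carriers SLC16A1 (MCT1) and SLC16A3 (MCT4). They were matched by symbol to the 21776 genes of the count table. Of the 9 genes, 8 had a row and all 8 were tested, among 14255 tested genes in all. PDK4 was not analysed here.

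RNA was sequenced from 6 libraries of SCC25 cells, an established human line from a squamous carcinoma of the tongue, labelled as wild type. In the hypoxia group, 3 libraries came from cells kept for 12 h at 1% O2 with CO2 and N2. In the normoxia group, 3 libraries came from cells kept for 12 h in a CO2 and air incubator. Hypoxia replicates 1 to 3 held 30186813, 36076088 and 32272716 counted reads, and normoxia replicates 1 to 3 held 37278703, 29637189 and 29981208. All cells grew in DMEM/F12 with serum. The data describe 1 line at 1 time point, and the labels do not say whether the replicates came from separate cultures, so the p-values measure only the spread between these libraries.

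Pyruvate, the end product of glycolysis, can enter the mitochondrion and be turned into acetyl-CoA by the pyruvate dehydrogenase complex, or stay in the cytosol and be reduced to lactate. The kinases PDK1 to PDK4 switch the complex off by phosphorylation, and the phosphatases switch it back on. LDHA-rich lactate dehydrogenase is best known for making lactate from pyruvate and the LDHB-rich enzyme for the reverse step. SLC16A3 is known mainly as an exporter in glycolytic cells, and SLC16A1 carries lactate in both directions. PDK1, LDHA and SLC16A3 are textbook targets of hypoxia-inducible factor (HIF), which binds DNA at the core letters ACGTG or GCGTG.

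The stretches of DNA before the starts of the genes were read for the ACGTG core because 5 of the listed genes were higher under hypoxia. RefSeq (GRCh38.p14) gave 15 windows of 250 bases before annotated starts, covering 7 of the 9 listed genes, all but PDP1 and SLC16A1. The letters ACGTG were searched on both strands, so that a match on the other strand reads CACGT, and the overlapping palindrome CACGTG was counted once. Of the 15 windows, 5 held a match and 3 held more than 1. Of all 35116 windows in the table, 18.5% held at least 1 match, 2.61% at least 2 and 0.35% at least 3. GCGTG, searched in the same way (CACGC on the other strand), was in 5 of the 15 windows and in 32.2% of all windows, and either core was in 8 of the 15 and in 43.2% of all windows. GCGTG alone was in the second LDHA window (1 match) and in 2 further windows of SLC16A3 (3 matches and 1). The 30 bases around each ACGTG match are shown in lower case with the matched letters in capitals, 5′ to 3′ on the plus strand, which is the gene's strand in each case.
PDK1 (chr2:172556060-172556089): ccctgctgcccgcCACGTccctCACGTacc
LDHA, nearer the start (chr11:18394470-18394499): gactcaCACGTGggttcccgCACGTccgcc
LDHA, farther from the start (chr11:18394366-18394395): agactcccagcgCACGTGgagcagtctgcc
SLC16A3 (chr17:82228968-82228997): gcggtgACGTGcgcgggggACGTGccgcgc
PDK3 (chrX:24465212-24465241): tcgcgcgccgcgtACGTGcagcaaccgact
PDK2 (chr17:50095210-50095239): cccgggggaagcCACGTGccggggcggaag

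In 3 of these genes the matches came as close pairs. In PDK1 they began 17 and 8 bases before the start, in SLC16A3 68 and 55 bases before it, and in LDHA 87 and 73 bases before it with another at 185. PDK1, PDK2, LDHA and SLC16A3 have further annotated starts, whose windows held no ACGTG, and which start the cells used cannot be read from counts per gene. The single window of LDHB, the only one of the 3 lower genes that was searched, and that of PDK4 held no ACGTG. A match is a description of letters and not a measured binding site.

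The condition and the cell type were checked first. The hypoxia targets CA9, VEGFA, ADM and NDRG1 were all higher under hypoxia (4 of 4), with CA9 at 262, 277 and 293 CPM (read counts scaled to the normalised library total) against 32.2, 27.3 and 67.7 in normoxia replicates 1 to 3. NDRG1 had 163 and 140 CPM in normoxia replicates 1 and 2 and 409 CPM in normoxia replicate 3, so that replicate 3 stood nearer to hypoxia for both genes. Of the 6 markers of squamous epithelium, 1 was higher and 3 were lower under hypoxia. CDH1 (E-cadherin) rose from a mean of 188 to 479 CPM (1.35 on the log2 scale), while EPCAM fell from 317 to 249 CPM (-0.35), KRT5 from 126 to 111 CPM (-0.18) and KRT6A from 16.5 to 0.951 CPM (-4.12). TP63 did not pass the threshold (0.12), and KRT14 had at most 1 read in any library. The summed level of the 6 genes was 329, 324 and 319 FPKM (reads scaled to gene length and library total) under hypoxia and 310, 304 and 318 FPKM under normoxia, a sum in which CDH1 went from 37.9 to 99.7 FPKM and EPCAM, the most abundant, from 202 to 164 FPKM.

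Markers of other cell types were mostly near the limit of counting. The leukocyte genes PTPRC and CD3E had at most 2 reads in any library, and CD68 carried nearly all of a sum of 16.2 to 19.96 FPKM. The 3 endothelial markers PECAM1, VWF and CDH5 summed to 0.317 FPKM or less in every library, and CDH5, the most abundant, rose by 1.14 on the log2 scale. The 5 fibroblast markers summed to 3.82, 3.21 and 2.85 FPKM under hypoxia and 0.625, 0.475 and 0.895 FPKM under normoxia. Most of this was COL1A1, which rose by 2.26 on the log2 scale, while COL3A1 had at most 2 reads and COL1A2 at most 9, DCN at most 4 and LUM at most 27 in any library. The part of these markers in the results was not tested.

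Under hypoxia, 5 of the 8 genes were higher (PDK1, PDK2, PDK3, LDHA and SLC16A3) and 3 were lower (PDP1, LDHB and SLC16A1) at an adjusted p-value under 0.05 by edgeR's quasi-likelihood test. For 8 of 8 genes the hypoxia and normoxia libraries did not overlap. These calls are frequent in this comparison: of all tested genes 39.2% were called higher and 38.5% lower (77.8% in either direction), and in 80.5% the libraries did not overlap. With calls this frequent and 8 genes, nothing is read from the counts, and the sizes and directions are described gene by gene. Over all tested genes the median absolute log2-fold change was 0.63, and LDHA, LDHB and PDP1 changed by less than this. The RNA came from whole cultures, so a change in every cell and a change in the share of cells that express a gene cannot be told apart.

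**Figure D1:**
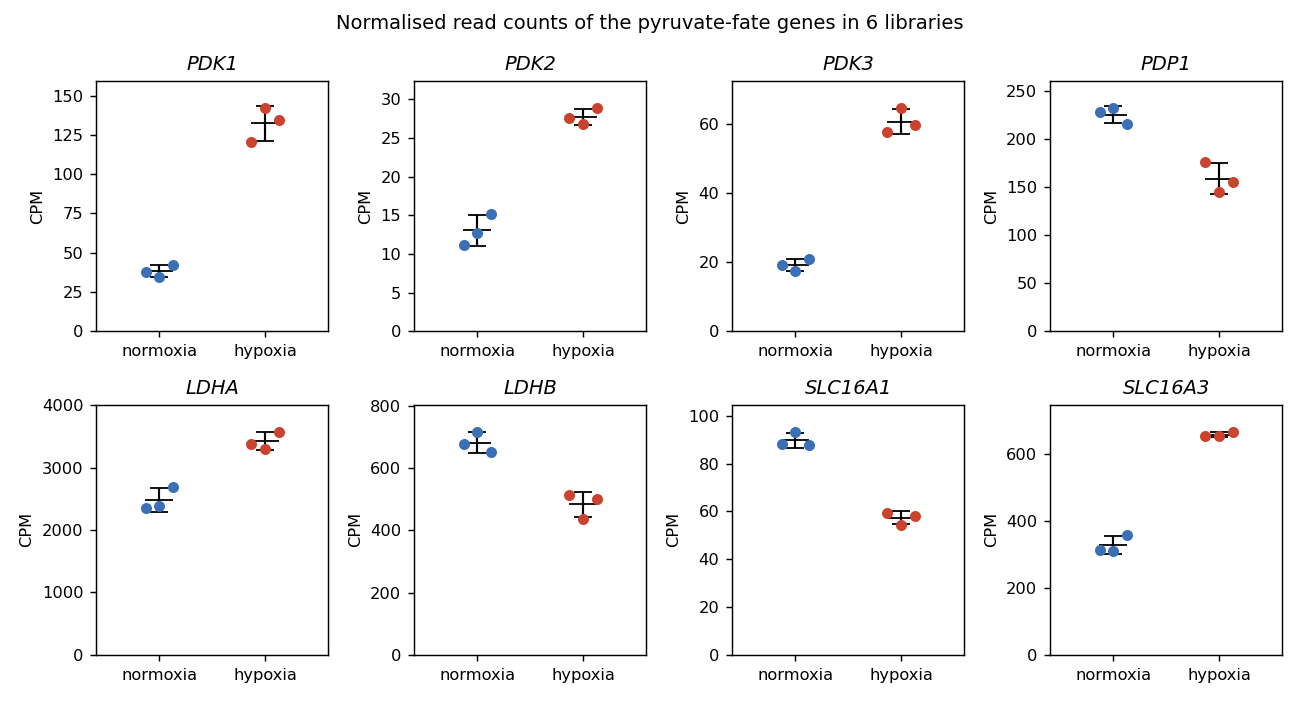
Normalised read counts (CPM, linear axes from 0) of the 8 genes in the 3 normoxia and 3 hypoxia libraries. Points are libraries, and the bars are the mean and SD. PDK1, PDK2, PDK3, LDHA and SLC16A3 lie higher in all hypoxia libraries, and PDP1, LDHB and SLC16A1 lie lower.

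PDK1 (Entrez gene 5163) encodes the kinase isoform best known for its induction by low oxygen, and it showed the largest change of the 8 genes. Hypoxia replicates 1 to 3 had 120, 142 and 135 CPM, whereas normoxia replicates 1 to 3 had 37.4, 34.8 and 42.2 CPM. The groups did not overlap, and the lowest hypoxia library was well above the highest normoxia library. The change was 3.47-fold, or 1.80 on the log2 scale (standard error, SE, 0.07, edgeR's adjusted p = 9.41e-13). A higher log2-fold change was found for 10.3% of all tested genes. Among the 3996 genes within 1 log2 unit of its mean level, 1.75% changed by more in that direction.

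PDK3 (Entrez gene 5165), a kinase isoform with little expression in most tissues, changed nearly as much. Its level was 57.8, 64.7 and 59.7 CPM under hypoxia and 19.3, 17.5 and 21.0 CPM under normoxia, with no library of one condition near the other. The log2-fold change was 1.66 (SE 0.08, edgeR's adjusted p = 2.99e-12), or 3.15-fold.

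PDK2 (Entrez gene 5164), the most widely expressed isoform, changed less than the other kinases. It had 27.5, 26.8 and 28.9 CPM under hypoxia and 11.1, 12.8 and 15.2 CPM under normoxia, where replicate 3 was the highest. The log2-fold change was 1.09 (SE 0.10, edgeR's adjusted p = 2.99e-08), or 2.14-fold. In GENCODE v29 its exons share 2113 bases with SAMD14 on the opposite strand. SAMD14 had 8 reads on average under hypoxia and 0.667 under normoxia, and the part of reads from the shared bases was not tested.

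PDP1 (Entrez gene 54704), a catalytic subunit of the phosphatase that reactivates pyruvate dehydrogenase, moved the other way. It had 176, 144 and 155 CPM under hypoxia and 228, 232 and 216 CPM under normoxia. The lowest normoxia library was above the highest hypoxia library, although hypoxia replicates spread more widely. The log2-fold change was -0.51 (SE 0.07, edgeR's adjusted p = 1.64e-06), a level 1.42-fold higher in normoxia. For 26.4% of all tested genes the log2-fold change was lower than that of PDP1.

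LDHA (Entrez gene 3939), the subunit that favours lactate formation, was per length (FPKM) the most abundant gene of the list in both conditions. It had 3384, 3304 and 3577 CPM under hypoxia and 2349, 2383 and 2694 CPM under normoxia. The change was the smallest of the increases, 1.38-fold or 0.47 on the log2 scale (SE 0.06, edgeR's adjusted p = 1.26e-06). A larger log2-fold change was found for 32.8% of all tested genes, and for 11 of the 40 genes within 1 log2 unit of its level. LDHA took 0.348% of all counted reads under hypoxia and 0.244% under normoxia, and per length it ranked 40 and 53 among all genes. GENCODE v29 names 6 LDHA pseudogenes and 3 LDHB pseudogenes, and reads they share with their parent genes could not be separated here.

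LDHB (Entrez gene 3945), the subunit of oxidative tissues, fell. It had 513, 438 and 500 CPM under hypoxia and 679, 718 and 650 CPM under normoxia, with a clear gap between the conditions. The log2-fold change was -0.50 (SE 0.06, edgeR's adjusted p = 1.01e-06), similar in size to that of LDHA and opposite in sign. For 26.8% of all tested genes the log2-fold change was lower than that of LDHB.

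SLC16A3 (Entrez gene 9123) encodes the lactate exporter MCT4. It had 653, 652 and 666 CPM under hypoxia and 314, 311 and 357 CPM under normoxia. The hypoxia libraries lay close together, and normoxia replicate 3 was again the nearest of the normoxia libraries. The log2-fold change was 1.00 (SE 0.06, edgeR's adjusted p = 4.18e-11), or 2.01-fold. Its exons share 482 bases with CSNK1D on the opposite strand in GENCODE v29, a gene with 4575 reads on average under hypoxia and 3946 under normoxia, and whether the counting used the strand is not given in the sources used here.

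SLC16A1 (Entrez gene 6566) encodes MCT1, the carrier found in most cells, and it fell. It had 59.5, 54.4 and 58.2 CPM under hypoxia and 88.1, 93.4 and 87.8 CPM under normoxia, so each normoxia library was above all hypoxia libraries. The log2-fold change was -0.65 (SE 0.06, edgeR's adjusted p = 1.47e-08). For 20.9% of all tested genes the log2-fold change was lower than that of SLC16A1. Its antisense gene SLC16A1-AS1, which shares 175 exon bases, had 25.7 reads on average under hypoxia and 48 under normoxia. The part of reads from the shared bases was not tested here either.

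Normoxia replicate 3 was the normoxia library closest to the hypoxia libraries for 8 of the 8 genes. Among the check genes this was also so for CA9, VEGFA and NDRG1, but not for ADM, which had 17.9, 17.9 and 16.8 CPM in normoxia replicates 1 to 3 and was higher under hypoxia. Over all tested genes this library was the closest for 55.7%. The results were as large without it: leaving it out, or any other library, the log2-fold changes were 1.73 to 1.86 for PDK1, 1.59 to 1.70 for PDK3, 0.97 to 1.203 for PDK2, 0.96 to 1.06 for SLC16A3 and 0.42 to 0.52 for LDHA. They were -0.68 to -0.61 for SLC16A1, -0.55 to -0.43 for LDHB and -0.60 to -0.45 for PDP1.

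**Figure D2:**
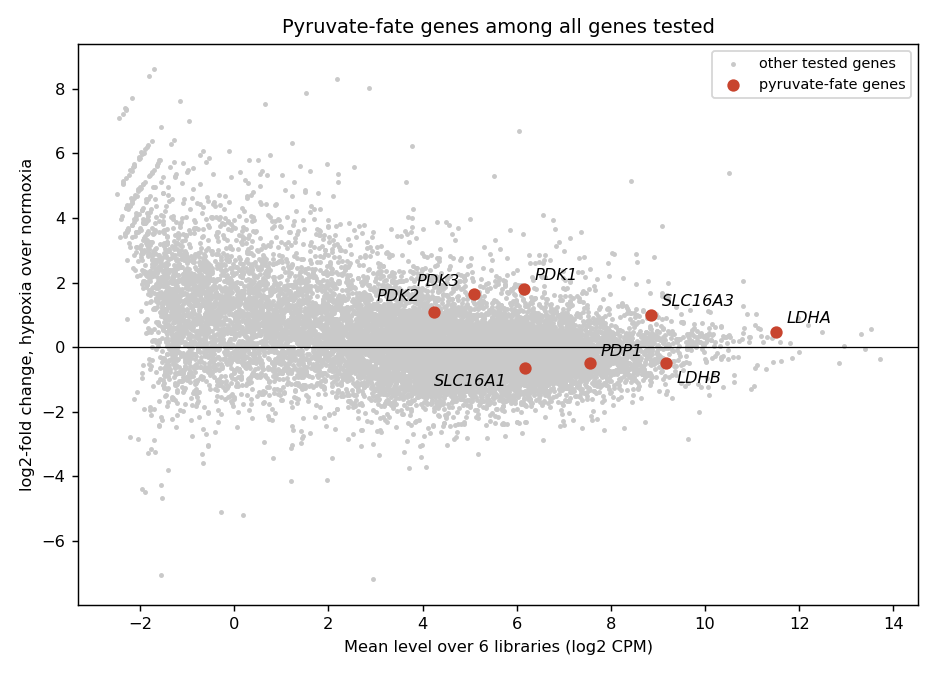
Log2-fold change (hypoxia over normoxia) against mean level (log2 CPM over 6 libraries) for all 14255 tested genes in grey and the 8 pyruvate-fate genes in red. PDK1 and PDK3 stand near the upper edge of genes of their level, and LDHA is at the abundant end with a log2-fold change of 0.47.

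Levels of different genes were next compared per length, as FPKM, within each library. Under hypoxia the order was LDHA (1390 ± 42.0 FPKM, SD, n = 3), LDHB (251 ± 18.0), SLC16A3 (206 ± 1.83), PDP1 (34.4 ± 3.27), SLC16A1 (12.9 ± 0.462), PDK1 (8.86 ± 0.818), PDK2 (6.87 ± 0.183) and PDK3 (4.72 ± 0.337). Under normoxia it was LDHA (973 ± 78.0 FPKM, SD, n = 3), LDHB (343 ± 13.5), SLC16A3 (99.3 ± 8.42), PDP1 (47.3 ± 1.64), SLC16A1 (19.6 ± 0.396), PDK2 (3.13 ± 0.487), PDK1 (2.47 ± 0.264) and PDK3 (1.45 ± 0.147). The order differed only in PDK1 and PDK2, which changed places, and no neighbours in either order overlapped in their libraries except for these kinases under normoxia. The order of the kinases also depends on gene length: the deposited FPKM use 15188 bases for PDK1, 13074 for PDK3 and 4099 for PDK2, and with the longest GENCODE v29 transcript (14193, 4720 and 3440 bases) PDK3 came first, at 13.1 FPKM under hypoxia against 9.48 for PDK1 and 8.19 for PDK2.

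With the deposited lengths, the balance between paralogs differed between the conditions in each family, with no overlap of the libraries. For the LDH genes and the lactate carriers this lack of overlap is no further result. It follows from LDHA and SLC16A3 being higher, and LDHB and SLC16A1 lower, in all hypoxia libraries. The same holds for the ratio of kinases to phosphatases below. LDHA made up 83.8%, 85.5% and 84.8% of the summed FPKM of LDHA and LDHB under hypoxia (replicates 1 to 3), whereas under normoxia it made up 73.0%, 72.2% and 76.4%. The difference was 10.8 percentage points, larger than the SD of 0.883 under hypoxia and 2.24 under normoxia. The exact permutation test (two-sided, n = 3 against 3) gave p = 0.1, the smallest p this design allows. The same test gave the same p for each of the ratios and shares below with the deposited lengths. The summed level of LDHA and LDHB was 1641 ± 51.3 FPKM (SD, n = 3) under hypoxia and 1317 ± 64.8 FPKM under normoxia.

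Among the lactate carriers, SLC16A3 was 15.3, 16.7 and 15.9 times as abundant per length as SLC16A1 under hypoxia and 4.96, 4.63 and 5.66 times under normoxia. The ratio was 3.15-fold higher under hypoxia, and the conditions did not overlap. The ratios themselves depend on the deposited lengths: with GENCODE v29 lengths their geometric means were 10.4 under hypoxia and 3.29 under normoxia, against 15.9 and 5.06, with the same fold between the conditions. The summed FPKM of both carriers was 119 ± 8.06 under normoxia and 219 ± 1.43 under hypoxia (SD, n = 3), most of it SLC16A3.

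The summed level of the kinases PDK1 to PDK3 was 19.3, 21.5 and 20.6 FPKM under hypoxia and 6.64, 6.51 and 7.99 FPKM under normoxia. The catalytic phosphatase subunits PDP1 and PDP2 together had 41.5, 34.7 and 36.1 FPKM under hypoxia and 52.4, 52.1 and 49.5 FPKM under normoxia. The ratio of kinase to phosphatase transcripts was 0.551 ± 0.0793 (SD, n = 3) under hypoxia and 0.138 ± 0.0206 under normoxia, a 4.002-fold difference of the geometric means. This ratio also moved with the length, to 0.769 and 0.189 (geometric means) with GENCODE v29 lengths and to 1.23 and 0.276 with reads not divided by length, so whether it lies above or below 1 under hypoxia is set by the scale. The fold between the conditions was 4.08 and 4.45 in these settings. PDK4 is not in these sums.

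Within the kinases, PDK1 made up 41.6%, 44.9% and 43.3% of the summed FPKM under hypoxia and 37.0%, 33.99% and 34.3% under normoxia. The share of PDK2 was 33.7% ± 2.03 (SD, n = 3) under hypoxia and 44.3% ± 3.01 under normoxia. PDK3 took 23.1% ± 0.725 and 20.6% ± 1.35. Its libraries did not overlap with the deposited lengths, but hypoxia replicate 3 (22.3%) and normoxia replicate 1 (22.2%) nearly met. The size and order of these shares depend on the gene lengths. With reads not divided by length, PDK1 took 59.9% under hypoxia and 54.15% under normoxia. PDK2 then took 12.6% and 18.5%, and PDK3 27.5% and 27.4%, with overlapping libraries for PDK3. With GENCODE v29 lengths, PDK3 took 42.5% under hypoxia and 38.7% under normoxia. PDK1 then took 30.8% and 25.5%, and PDK2 26.7% and 35.8%.

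The genes that act beside the list were taken from a list of 44 genes of pyruvate and lactate metabolism and its regulators. Of these, 41 had a row and 34 were tested, 14 of them higher and 18 lower under hypoxia, while 2 did not pass the threshold. Over all tested genes 39.2% were higher and 38.5% lower, and 77.8% were called in either direction. The list's median log2-fold change was -0.25, against 0.02 over all tested genes, and that of the 8 listed genes was 0.74.

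The pyruvate dehydrogenase complex, the target of the kinases, had 5 of 5 subunit genes lower, where 38.5% of all tested genes were lower. Of the 5, only DLAT changed by more than the median absolute log2-fold change of all tested genes, 0.63. DLAT, the acetyltransferase core, showed the largest decrease, from 98.5, 96.4 and 85.6 CPM under normoxia to 45.6, 44.8 and 48.7 CPM under hypoxia (log2-fold change -1.01, SE 0.06, edgeR's adjusted p = 1.68e-10). PDHA1, the subunit that the kinases phosphorylate, fell by 0.61 on the log2 scale (SE 0.06). PDHX, which anchors DLD in the complex, fell by 0.56, and DLD by 0.44. PDHB changed by -0.15 (edgeR's adjusted p = 0.0404), and this call did not hold in the DESeq2 Wald test (adjusted p = 0.0672) or without hypoxia replicate 2 (log2-fold change -0.11, adjusted p = 0.15), hypoxia replicate 3 (adjusted p = 0.0858), normoxia replicate 2 (adjusted p = 0.0547) or normoxia replicate 3 (adjusted p = 0.0539), all from fits across all genes.

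The other phosphatase subunits followed PDP1, with PDP2, a catalytic subunit, at -0.44 (SE 0.09) and PDPR, the regulatory subunit, at -0.32 (SE 0.05), both called lower. Of the mitochondrial pyruvate carrier, MPC1 fell by 0.46 on the log2 scale (SE 0.14, edgeR's adjusted p = 0.00586), although its libraries overlapped. MPC2 had a log2-fold change of -0.18 (SE 0.08, edgeR's adjusted p = 0.0569) and passed without hypoxia replicate 3 (adjusted p = 0.0254) or normoxia replicate 3 (adjusted p = 0.014).

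The chaperones that bring the carriers to the cell surface differed in direction. BSG (basigin), the partner of SLC16A1 and SLC16A3, rose from 551, 561 and 594 CPM to 736, 723 and 782 CPM (log2-fold change 0.39, SE 0.05, edgeR's adjusted p = 2.34e-06). EMB (embigin), the partner preferred by SLC16A7, fell by 0.59 on the log2 scale (SE 0.06). SLC16A7 (MCT2) itself, a carrier with high affinity for pyruvate, fell by 0.82 (SE 0.12) and had a mean of 1.13 FPKM. SLC16A5 rose by 1.38 (SE 0.12) and SLC16A13 by 0.59 (SE 0.09). Of the 12 further SLC16 genes, 7 were tested, of which 3 were higher and 4 lower, and 9 had a mean under 1 FPKM.

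Among other enzymes that use or make pyruvate, PC (pyruvate carboxylase), which feeds pyruvate into oxaloacetate, rose from 11.4, 10.7 and 10.3 CPM to 24.1, 21.5 and 24.6 CPM, a log2-fold change of 1.11 (SE 0.09). GPT2, the mitochondrial alanine aminotransferase, rose by 0.29 (SE 0.06). ME1 and ME2, the malic enzymes in the list, fell by 0.65 and 0.69 on the log2 scale. PKM, the pyruvate kinase that supplies the pool, had a log2-fold change of 0.16 (edgeR's adjusted p = 0.0149), a call that was lost without hypoxia replicate 1 (adjusted p = 0.0603), hypoxia replicate 3 (adjusted p = 0.0762) or normoxia replicate 1 (log2-fold change 0.11, adjusted p = 0.105).

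Of the 4 other lactate dehydrogenase genes, 1 was tested, LDHD, which was higher at a mean of 0.149 FPKM. HCAR1, the lactate receptor, was not analysed here.

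The transcription factors known upstream of these genes were also read. Of the HIF subunits, EPAS1 (HIF-2 alpha) rose by 1.40 on the log2 scale (SE 0.07) and ARNT (the beta subunit) by 0.61 (SE 0.06). HIF1A transcripts fell from 304, 326 and 331 CPM to 78.9, 61.5 and 60.5 CPM, a log2-fold change of -2.26 (SE 0.08, edgeR's adjusted p = 2.08e-13). HIF1A is regulated mainly through the stability of its protein, which was not measured in these libraries. Of 7 factors known for their control of PDK4, PPARD (1.63), PPARA (1.33) and FOXO3 (1.13) were higher and PPARG (-0.56) and ESRRA (-0.46) lower in log2-fold change, FOXO1 did not pass (-0.14) and PPARGC1A had at most 3 reads in any library.

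**Figure D3:**
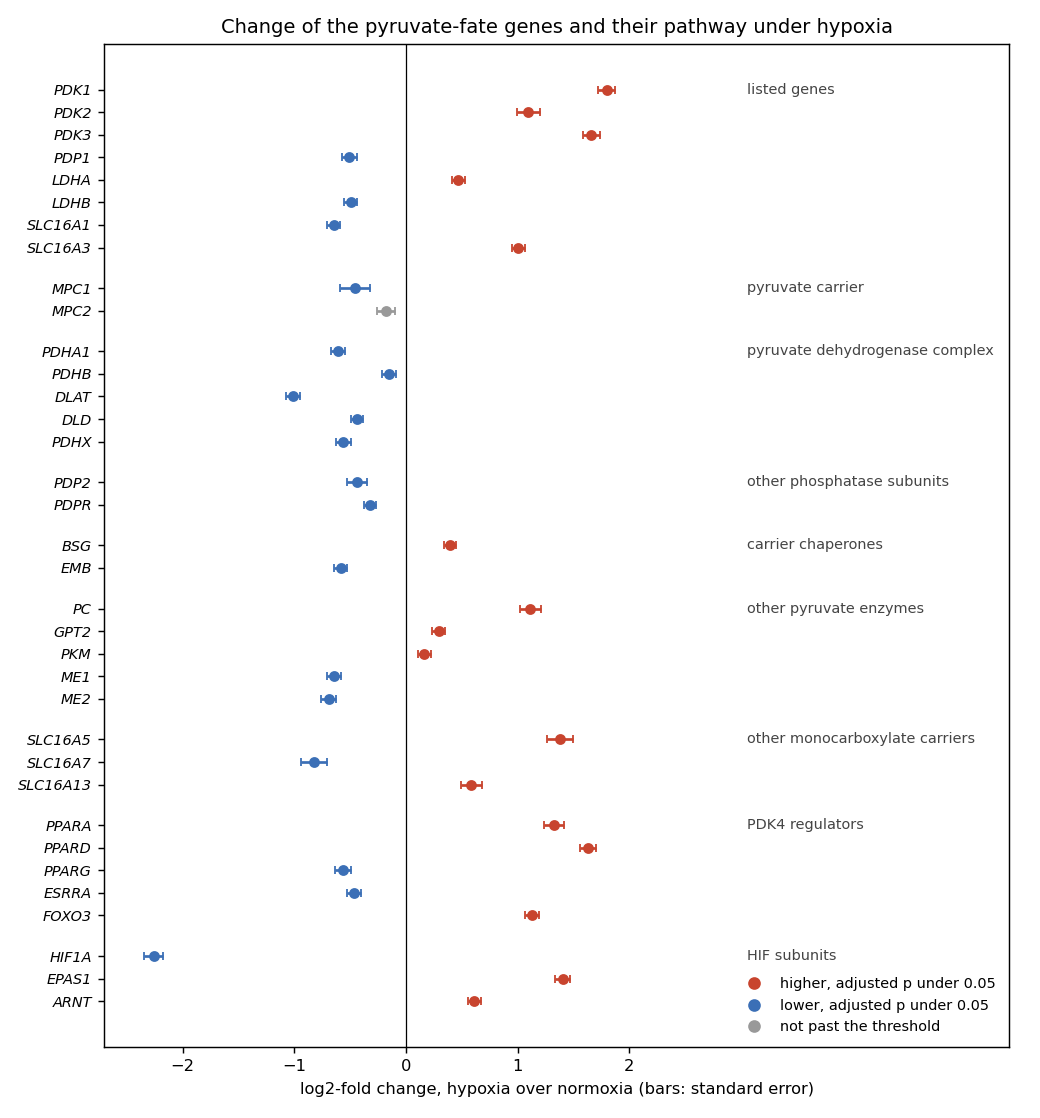
Log2-fold change (hypoxia over normoxia) with its standard error for the 8 listed genes and 27 named genes of the pathway list, by role. Red marks genes higher and blue genes lower at an adjusted p-value under 0.05, grey the rest. PDK1 (1.80) and PDK3 (1.66) contrast with the lower subunits of pyruvate dehydrogenase, of which DLAT fell by 1.01.

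The genes whose profile over the 6 libraries was most like that of 4 listed genes were named by the smallest distance between log2 CPM values centred on the normoxia mean, among 11573 other tested genes with a mean of at least 1 log2 CPM. Among the nearest were SYNGR1 and MANBA for PDK1 (distances 0.105 and 0.107 log2 units), and RETREG3, TADA3 and MISP for LDHA (0.0437, 0.0574 and 0.0616). For SLC16A3 they were ZNF302, ACSL3 and BST2 (0.0584, 0.0585 and 0.0659), and for LDHB they were RBBP7, MAGEB2 and NDUFA4 (0.0532, 0.0548 and 0.0616). With 6 libraries in 2 conditions, this likeness rests mostly on the size of the change between the conditions.

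In the annotation deposited beside the counts, PDK1, PDK2, PDK3 and PDP1 share the term mitochondrial matrix, LDHA and LDHB the term L-lactate dehydrogenase activity, and SLC16A1 and SLC16A3 the term lactate:proton symporter activity. Members of 1 term thus moved in opposite directions in each of these groups: PDP1 against the kinases, LDHB against LDHA, and SLC16A1 against SLC16A3.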

How the data were processed

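Total RNA of 6 libraries (SMARTER mRNA-Seq kit) was counted by the authors. The deposited counts are whole numbers of reads per gene without normalization. The deposited FPKM, made by the authors, follow for the 8 genes from counts, 1 length per gene and the library total. The aligner, annotation and strand setting are not given in the sources used here. The submitters' processing notes name GRCm38 and mm10, which are mouse builds, while the gene symbols are human. The labels name SCC25, and a legend of the paper names SCC9. No coordinates of the files are therefore given. Hypoxia was compared with normoxia by edgeR's quasi-likelihood test (edgeR 4.0.16 in R 4.3.3) without covariates, after TMM scaling and the filterByExpr filter, and calls were made at a Benjamini-Hochberg adjusted p under 0.05. Standard errors were taken from the log2-fold change and the root of F. CPM use TMM-adjusted totals, and log2 CPM a prior count of 2. Scripts were tested on simulated data. Alternatives were DESeq2 1.42.0 (size factors or Wald test), no filter, at least 10 counts in every library, a replicate block, leaving out each library, and limma 3.58.1 on log2(FPKM + 1) or log2(FPKM + 0.1) for genes averaging 1 FPKM or more, or for all. GENCODE v29 lengths were added after the data were seen. The genes, lists and tests were chosen with earlier results of these data known. Named are the 9 listed genes, the check genes, the carrier, complex, phosphatase and chaperone genes, other called pathway genes averaging 1 FPKM or more, and the 3 nearest profiles of 4 genes, of which 1 is not reported here. Promoter windows were shown where ACGTG matched. Replicate pairs differed by more than sampling noise (chi-square per gene 4.9 to 10.8).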

Additional observations from a re-analysis of the deposited data

How the results depend on the processing

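Over 14 alternatives each, all 112 results for the 8 listed genes kept their direction and an adjusted p under 0.05 (largest 0.00216, for PDP1). The range was 1.51 to 1.87 for PDK1 and 1.22 to 1.73 for PDK3, where the lowest values are on the log2(FPKM + 1) scale, and 0.42 to 0.54 for LDHA. The number of genes called lay between 8851 and 11920 against 11090. For the named pathway genes, 284 values kept their direction and side of the threshold, 10 lost the call (PDHB and PKM), 3 gained one (MPC2) and none reversed. MPC2 also passed without the filter (log2-fold change -0.22, adjusted p = 0.0193). PDHB did not with at least 10 counts in every library (log2-fold change -0.07, adjusted p = 0.296). Over the shared genes the median log2-fold change shifted by -0.041 without the filter and by 0.077 with at least 10 counts. The causes were not tested. Differences in the PDK shares moved with the length: without division by length they were 5.73 points for PDK1, -5.87 for PDK2 and 0.139 for PDK3, and with GENCODE v29 lengths 5.31 for PDK1 and 3.79 for PDK3, against 8.14, -10.6 and 2.45. With the replicate block, 10875 genes were called, 5 listed genes higher and 3 lower, and PDHB had an adjusted p of 0.0596; the numbers do not pair the libraries (correlations of deviations 0.0175, -0.069 and 0.00122, none best with its own number). The depth of 29637189 reads or more limits mainly the genes with few reads, none of them among the 8 listed genes that were tested.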
